A study of Mus musculus with 14 samples.

Results

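Myf5, Myod1, Myog and Myf6 are the 4 genes of the myogenic regulatory factor (MRF) family, and Mef2a, Mef2c and Mef2d are 3 genes of the Mef2 family. They were matched by symbol, as 7 of the 14837 genes with input values, and all 7 passed the filter on low counts in RNA. In m6A-RIP, 6 of them were listed (all but Myf6, in 13 rows). In Igf2bp3-RIP 4 were listed (Myf5, Myod1, Mef2a and Mef2d, in 10 peaks) and in Lin28a-RIP 1 (Mef2a, in 3 peaks). In all, m6A-RIP, Igf2bp3-RIP and Lin28a-RIP listed 9416, 4527 and 3493 genes.

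MRFs are basic helix-loop-helix (bHLH) transcription factors that bind DNA as dimers with E proteins at the E-box, the motif CANNTG. Myf5 and Myod1 mark muscle stem cells (MuSCs, the resident stem cells of skeletal muscle) and proliferating myoblasts, Myog is switched on when myoblasts commit to differentiation, and Myf6 (also called MRF4) is best known from late differentiation and mature fibres. Mef2 proteins are MADS-box factors that bind A/T-rich sites and activate muscle genes together with MRFs. In GRCm38.p6, Myf5 (chr10:107482908-107486927) and Myf6 (chr10:107492848-107494723) are neighbours that do not overlap. Myod1 (chr7:46376474-46379092) and Mef2a (chr7:67231163-67376456) share a chromosome, and Myog (chr1:134290004-134292548), Mef2c (chr13:83504017-83667079) and Mef2d (chr3:88141941-88172091) lie on others.

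The study compared control MuSCs with Lin28a+ MuSCs, which carry the RNA-binding protein Lin28a. The donor mice of the Lin28a+ cells carry Lin28a-CreERT2, a tamoxifen-inducible Cre driven by the Lin28a gene, and LSL-tdTomato, a red reporter that Cre switches on, and cells were obtained by flow sorting. The labels call the other group Control, untreated, and name for it neither another genotype nor a sorting marker, and strain and age are not given for either group. Cells of both groups were grown on Matrigel in medium with 10% FBS, so the values are those of cultured cells. Each group had 2 input libraries (the RNA-seq), 2 m6A-RIP libraries, in which an antibody pulled down fragments carrying N6-methyladenosine, and 2 Igf2bp3-RIP libraries, and Lin28a+ MuSCs had 2 Lin28a-RIP libraries, 14 in all.

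Totals were 4842915 to 6220960 estimated counts for input, 21350962 to 31830638 counts for m6A-RIP, 9215355 to 34142094 for Igf2bp3-RIP and 33908110 to 36610494 for Lin28a-RIP. Of 14 MuSC markers, 12 were in the input table, with summed levels of 8580 to 9110 CPM (counts scaled to the same library total) across the 4 libraries, most of it Myod1, Cdh15 and Des. The sum hides changes of its members: of 11 tested, 2 were higher in Lin28a+ MuSCs (Cdh15 and Pax7) and 6 lower (median log2 fold change -0.53), beside 28.1% higher and 28.7% lower over all genes, among them Myf5 itself, Sdc4 (log2 fold change -1.10) and Des (-0.53). Summed endothelial (0.478 to 0.836 CPM), macrophage (3.52 to 5.85 CPM) and Schwann cell markers (1.87 to 3.27 CPM) were near 0, with Cdh5, Kdr, Sox10 and Adgre1 not among the genes listed. Fibro-adipogenic progenitor markers summed to 123 to 134 CPM, most of it Col3a1; Pdgfra was at 0.235 CPM or less, and Ly6a was higher in Lin28a+ MuSCs (3.934 and 4.505 CPM against 13.56 and 12.47 CPM). Pericyte or smooth muscle markers summed to 5600 and 5700 CPM in control and 7630 in each Lin28a+ library, most of it Acta2, but of 5 tested, beside the same background, 3 were higher (Mcam at a log2 fold change of 3.17, Pdgfrb at 1.27 and Acta2 at 0.46) and 2 lower (Tagln at -1.92 and Rgs5 at -3.35). The part of these marker changes in the results below was not tested. Whether paired libraries came from separate animals or cultures is not stated, so p-values measure the spread between these libraries only. Lin28a itself was not analysed here.

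The E-box content of the MRF and Mef2 promoters is shown first, since MRF proteins also bind regulatory DNA of MRF and Mef2 genes. RefSeq promoter sequences (GRCm38.p6, 250 bases before the start, 5′ to 3′) were matched for 5 of the 7 genes, and Myod1 and Myf6 had no entry. The start is that of the promoter sequence, which need not be the outer end of the gene. The Myf5, Mef2a and Mef2d windows lie inside the gene spans given above. Distances of peaks from a start site, given below, use the same starts. The Myog and the first of 3 Mef2c promoters each held 2 matches to CANNTG, marked in capitals, and the Myf5 promoter held none; the motif reads the same on both strands. The 3 lines below run from chr1:134289754-134290003 (+), chr13:83503784-83504033 (+) and chr10:107486135-107486384 (-).
Myog: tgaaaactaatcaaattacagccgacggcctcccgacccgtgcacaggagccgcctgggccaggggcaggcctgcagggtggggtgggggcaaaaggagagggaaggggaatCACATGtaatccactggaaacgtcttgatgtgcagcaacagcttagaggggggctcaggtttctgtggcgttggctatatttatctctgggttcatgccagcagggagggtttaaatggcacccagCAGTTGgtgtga
Mef2c: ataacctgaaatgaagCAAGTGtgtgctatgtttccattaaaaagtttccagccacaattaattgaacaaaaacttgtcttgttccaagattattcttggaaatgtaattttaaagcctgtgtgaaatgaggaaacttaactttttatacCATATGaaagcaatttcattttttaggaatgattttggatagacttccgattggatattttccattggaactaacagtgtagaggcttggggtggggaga
Myf5: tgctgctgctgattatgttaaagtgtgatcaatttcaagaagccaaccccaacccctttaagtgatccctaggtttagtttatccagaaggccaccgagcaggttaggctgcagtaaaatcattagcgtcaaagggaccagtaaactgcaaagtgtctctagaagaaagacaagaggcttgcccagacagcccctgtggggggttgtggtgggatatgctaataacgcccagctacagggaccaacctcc

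In Myog the matches began 138 and 12 bases before the start, and in Mef2c 234 and 100 bases before it. The Mef2a and Mef2d promoters held no match, and the other 2 Mef2c promoters held 0 and 1. CANNTG occurred in 66.2% of 32851 promoters of this length, so a match does not set these genes apart. The E-box form CAGCTG, found in 13% of promoters, was not among the letters of these windows.

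In RNA, the MRF and Mef2 genes split. Myog, the differentiation factor, was 3.62-fold higher in Lin28a+ MuSCs, whereas Myf5, an early MRF of stem cells and myoblasts, was 2.31-fold lower, Mef2a 2.16-fold lower and Mef2c 2.84-fold lower. Myod1, the MRF of activated and proliferating MuSCs, Mef2d and Myf6 were not called. With 1 gene higher and 3 lower, 4 of the 7 were called (edgeR's quasi-likelihood test, Benjamini-Hochberg adjusted p under 0.05). The background was 56.8% of 11317 genes called in either direction, 28.1% higher and 28.7% lower. The number called was thus near the share over all genes and does not set these genes apart.

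Levels below are CPM with TMM factors, which correct library totals for composition, in the order control replicate 1, control replicate 2 and both Lin28a+ libraries. The Lin28a+ RNA columns are headed with names of m6A-RIP libraries, and were taken as input because the labels of the Lin28a+ input samples point to that set of values. Their levels across 7950 genes had a Spearman correlation of 0.943 with each control input library and of 0.466 to 0.515 with the m6A-RIP libraries, which were counted by row and not by gene. Every RNA change, and every change relative to RNA, rests on this assignment. Levels were not compared between genes, since transcript lengths were not used.

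Myog (ENSMUSG00000026459) RNA stood at 765.6 and 774.6 CPM in control MuSCs and at 2769 and 2809 CPM in Lin28a+ MuSCs. The Lin28a+ libraries lay far above both control libraries, and the gap was many times the spread within either group. Means were 770.1 ± 6.36 and 2789 ± 28.3 CPM (SD, n = 2), with a log2 fold change of 1.86 (standard error 0.0223, adjusted p = 1.42e-06, edgeR's quasi-likelihood test).

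For Myf5 (ENSMUSG00000000435), levels were 451.4 and 464.5 CPM in control MuSCs against 196.7 and 200.4 CPM in Lin28a+ MuSCs. The control libraries were both above the Lin28a+ libraries. The log2 fold change was -1.21 (standard error 0.0287, adjusted p = 6.56e-06, edgeR).

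Counts of Myog were 1.7 and 1.67 times those of Myf5 in the control input libraries and 14.1 and 14 times in the Lin28a+ libraries. These ratios are not per length, so what can be read from them is their shift between libraries. Relative to Myod1, Myog counts went from 0.165 and 0.164 to 0.586 and 0.594, and Myf5 counts from 0.0971 and 0.0986 to 0.0417 and 0.0424.

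Myod1 (ENSMUSG00000009471) had 4651 and 4713 CPM (control) and 4723 and 4728 CPM (Lin28a+). The groups did not overlap, but the nearest libraries of the groups were closer together than the control replicates. Its log2 fold change was 0.013, with a 95% interval of -0.0361 to 0.063 (adjusted p = 0.605, edgeR), so a change of the size seen in Myog or Myf5 lies outside this interval.

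Myf6 (ENSMUSG00000035923) was at 13.11 and 7.402 CPM in control MuSCs, compared with 16.12 and 11.45 CPM in Lin28a+ MuSCs. The groups overlapped and the control replicates lay far apart. The log2 fold change of 0.46 had a standard error of 0.291 (adjusted p = 0.236, edgeR), and without control replicate 1 it was 0.89 and called (adjusted p = 0.0242), so 1 library decides this call. Without control replicate 2 it was 0.075, and without 1 or the other Lin28a+ library 0.19 and 0.68, none of them called.

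Of the Mef2 genes, Mef2a (ENSMUSG00000030557) had 132.6 and 130.8 CPM in the control libraries and 62.5 and 59.49 CPM in the Lin28a+ libraries. Levels in the Lin28a+ libraries were both below those in control, with a log2 fold change of -1.11 (standard error 0.0374, adjusted p = 1.48e-05, edgeR).

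Mef2c (ENSMUSG00000005583) was listed at low values, 5.62 and 5.31 CPM (control) and 1.965 and 1.84 CPM (Lin28a+). The groups did not overlap, and the log2 fold change was -1.51 (standard error 0.153, adjusted p = 0.000494, edgeR). Its deposited values were whole multiples of 1/31, such as a mean over 31 transcripts would give. Multiplied by 31 they came to 942 and 1012 in control and 302 and 276 in Lin28a+ MuSCs, and with input values treated in this way, a choice made after seeing the data, the standard error was 0.0665 (log2 fold change -1.55, adjusted p = 9.93e-05, edgeR). With DESeq2 on the rounded values the log2 fold change was -1.51 and the call was lost (adjusted p = 0.0945).

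Mef2d (ENSMUSG00000001419) had 72.12 and 67.9 CPM in control MuSCs, compared with 66.23 and 66.03 CPM in Lin28a+ MuSCs. The lower control library was close to both Lin28a+ libraries. The log2 fold change was -0.08, with a 95% interval of -0.251 to 0.093 (adjusted p = 0.381, edgeR), which does not reach the changes of Mef2a or Mef2c. In bulk libraries such as these, fewer cells that express a gene and less of its RNA per cell cannot be told apart.

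**Figure D1:**
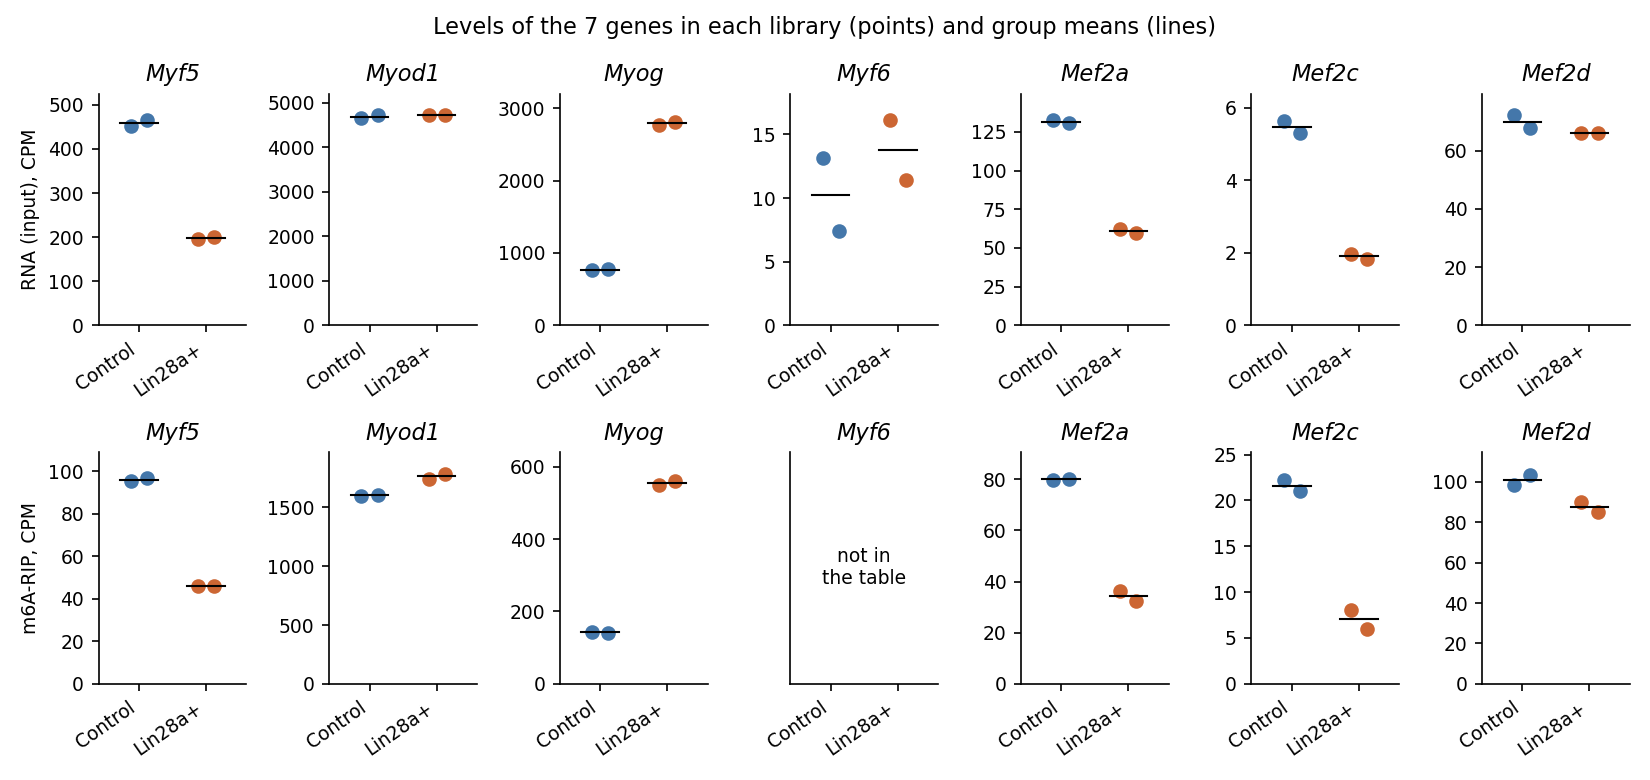
Level of each gene in CPM (each vertical axis from 0, with its own scale) in the input libraries (upper row) and in m6A-RIP with the rows of a gene summed (lower row). Points are libraries and lines are group means of 2; Myog is higher in both Lin28a+ libraries in both assays, Myf5, Mef2a and Mef2c are lower, and Myf6 has no m6A-RIP row.

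In m6A-RIP, all 6 genes with rows were called when the rows of a gene were summed, 2 higher and 4 lower, beside a background of 66.2% of 9413 genes in either direction, 32.5% higher and 33.7% lower. Myog, Myf5, Mef2a and Mef2c moved as their RNA did, and small shifts of Myod1 (higher) and Mef2d (lower) were called in addition. The m6A-RIP rows carry a transcript but no position, so the methylated bases could not be placed in the genes.

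Myog had m6A-RIP levels of 144.2 and 141.5 CPM in the control libraries and 549 and 561.6 CPM in the Lin28a+ libraries, all in 1 row. No Lin28a+ library came near the control range, and the log2 fold change was 1.96 (standard error 0.0407, adjusted p = 1.93e-12, edgeR). For Myf5, also in 1 row, levels were 95.17 and 96.56 CPM (control) and 46.15 and 45.97 CPM (Lin28a+). Replicates lay close together in both groups, and the log2 fold change was -1.06 (standard error 0.0535, adjusted p = 4.74e-09, edgeR).

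Myod1 rose from 1597 and 1610 CPM to 1745 and 1783 CPM, a log2 fold change of 0.14 (standard error 0.0334, adjusted p = 0.00297, edgeR). The groups did not overlap, but scaled by total counts only, without TMM factors, the value was 0.036 and not called (adjusted p = 0.351). Its 2 rows differed in their calls: the row that held 73.1 to 75.8% of its counts had a log2 fold change of 0.24 (adjusted p = 5.51e-05), and the other had 0.06 (adjusted p = 0.271, edgeR). The difference between the rows was not tested.

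Mef2a fell in m6A-RIP from 79.87 and 80.01 CPM to 36.1 and 32.33 CPM, a log2 fold change of -1.23 (standard error 0.0686, adjusted p = 1.17e-08, edgeR). Its 3 rows, which belong to 2 transcripts, were all called, with log2 fold changes of -0.95, -1.15 and -1.29. Mef2c had 22.18 and 21.03 CPM in control MuSCs, compared with 8.047 and 6 CPM in Lin28a+ MuSCs, with a log2 fold change of -1.63 (standard error 0.153, adjusted p = 1.29e-06, edgeR). The Mef2c rows, from different transcripts, had log2 fold changes of -1.45 and -2.04, and the smaller row held 26.9 and 25.6% of its counts in control and 19.5 and 18.9% in Lin28a+ MuSCs. This difference between rows was not tested either.

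Mef2d had 98.51 and 103.4 CPM in the control libraries and 90.17 and 85.1 CPM in the Lin28a+ libraries. Each Lin28a+ library was below both control libraries by a small margin, and the log2 fold change was -0.20 (standard error 0.0501, adjusted p = 0.00326, edgeR). Of its 4 rows, 1 was called (log2 fold change -0.30, adjusted p = 0.0317), and the others had values of -0.34, -0.18 and 0.00. In all, 9 of the 13 rows were called, 2 higher and 7 lower, where 61.8% of 18881 rows were called in either direction, 30% higher and 31.8% lower.

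**Figure D2:**
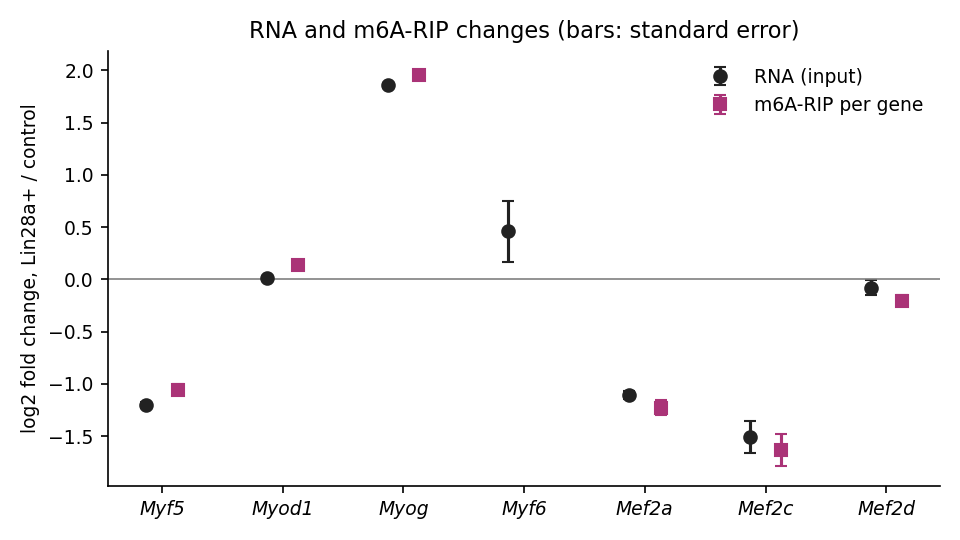
Log2 fold change of Lin28a+ over control MuSCs for each gene in RNA (circles) and in m6A-RIP per gene (squares), with bars of 1 standard error, some smaller than the symbol. The circle and square of a gene lie close together, from Myog at 1.86 and 1.96 to Mef2c at -1.51 and -1.63; Myf6 has a circle but no square.

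Whether m6A-RIP changed by another factor than RNA was asked with 1 model of both assays and an interaction term. None of the 6 genes was called (0 of 6, also with DESeq2), where 7.16% of 7950 genes were. At an unadjusted p under 0.05 (edgeR) were 2 of the 6, beside 1350 of the 7950 genes. The differences, m6A-RIP change minus RNA change on the log2 scale, were 0.13 for Myf5 (95% interval 0.0308 to 0.238, adjusted p = 0.143), 0.11 for Myod1 (0.0287 to 0.19, adjusted p = 0.124) and 0.09 for Myog (-0.00134 to 0.174, adjusted p = 0.305, edgeR). The MRF differences were thus small beside the RNA changes of Myog and Myf5.

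The 3 Mef2 genes had values of -0.14 each, with intervals of -0.319 to 0.049 for Mef2a, -0.314 to 0.0351 for Mef2d and -0.986 to 0.712 for Mef2c. The wide Mef2c interval goes with its low rounded input values, and with these multiplied by k the standard error went from 0.382 to 0.153 and the value was -0.10 (adjusted p = 0.816, edgeR).

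Igf2bp3, an RNA-binding protein that reads m6A and stabilises its target RNAs, had peaks on Myf5 (3), Myod1 (1), Mef2a (4) and Mef2d (2). All 10 lay within the span of their gene. None was called (0 of 10 peaks), beside 0.123% of 19465 peaks. At an unadjusted p under 0.05 (edgeR) were 2 of the 10, beside 1017 of the 19465 peaks. With peaks summed, 0 of the 4 genes were called, beside 0.287% of 4524 genes. Of the 4, 1 had an unadjusted p under 0.05 (edgeR), beside 382 of the 4524 genes. DESeq2 also called none of the 10 peaks or 4 genes. Point estimates ranged from -0.18 to -0.85 on the log2 scale, beside a median of -0.013 over all peaks, and those of the 4 Mef2a peaks and of 1 Mef2d peak were above 0 without Lin28a+ replicate 2. The replicates of this assay were far apart. Its fit, made here without a replicate block, had a biological coefficient of variation of 27.9% against 2.48% in RNA.

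The widest of the Myf5 peaks (657 bases), at chr10:107485453-107486109, began 25 bases downstream of the start site. It had 240.7 and 206.1 CPM in control replicates 1 and 2 and 151.4 and 96.44 CPM in Lin28a+ replicates 1 and 2. The groups did not overlap, and the log2 fold change was -0.85 (95% interval -1.63 to -0.0744, adjusted p = 0.892, edgeR). The other Myf5 peaks, at 107484057-107484286 and 107483244-107483498, had log2 fold changes of -0.78 (adjusted p = 0.938) and -0.62 (adjusted p = 1, edgeR); the latter was -0.30 without control replicate 1 and -0.95 without Lin28a+ replicate 1. Summed, Myf5 had 361.3 and 335.9 CPM against 229.8 and 164.6 CPM.

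For Myod1, with its peak at chr7:46378619-46378879, the summed levels were 796.7 and 691.1 CPM (control) and 598.2 and 323.4 CPM (Lin28a+). The groups did not overlap, but Lin28a+ replicate 2 was far below replicate 1. The log2 fold change was -0.69 (95% interval -1.52 to 0.134, adjusted p = 0.658, edgeR); it was -1.19 without Lin28a+ replicate 1 and -0.28 without Lin28a+ replicate 2, and called in neither case.

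Mef2a had 740.5 and 541 CPM in control MuSCs, compared with 747.7 and 291.3 CPM in Lin28a+ MuSCs. The replicates of the Lin28a+ group enclosed both control values, and the log2 fold change of -0.30 (95% interval -1.42 to 0.815) became 0.26 without Lin28a+ replicate 2. Mef2d had 108.2 and 112.4 CPM against 96.36 and 90.8 CPM, a log2 fold change of -0.24 (95% interval -0.723 to 0.247, adjusted p = 0.832, edgeR), with no overlap of the groups but a difference within the error of this assay.

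**Figure D3:**
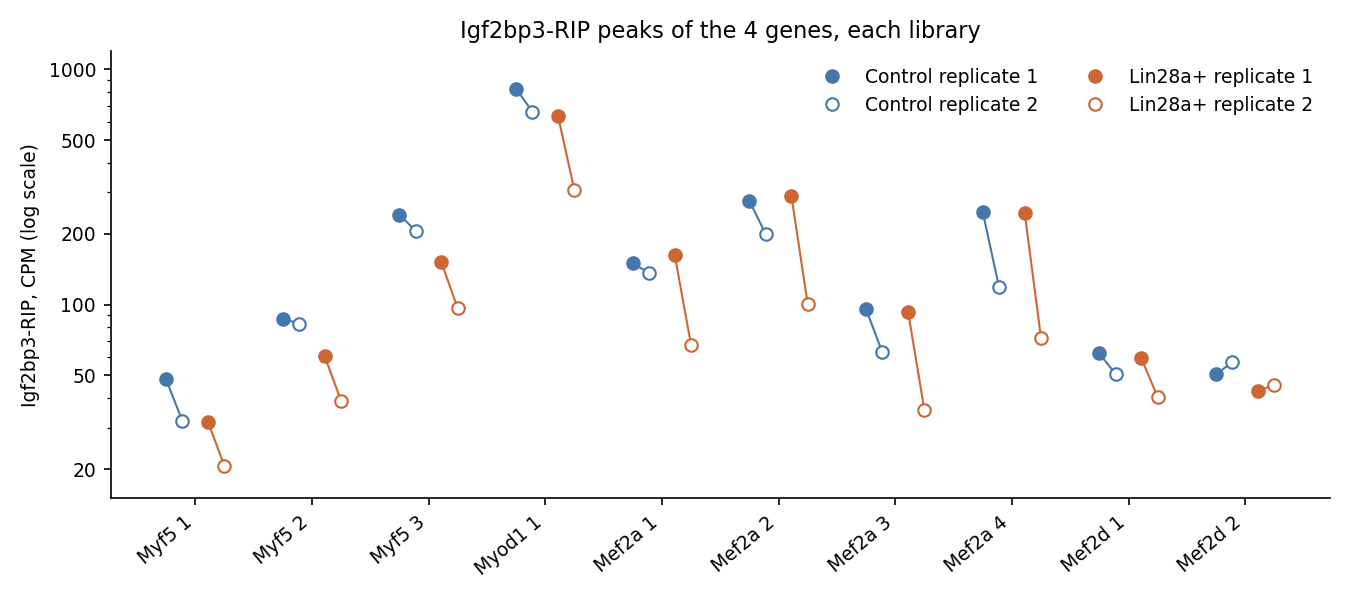
Igf2bp3-RIP level of the 10 peaks in CPM (log scale), numbered within a gene by position; filled points are replicate 1, open points replicate 2, and lines join the replicates of a group. In 9 of the 10 peaks replicate 2 is lower than replicate 1 in both groups, and the step is largest in the Lin28a+ libraries of Mef2a.

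Relative to RNA, Igf2bp3-RIP of none of the 4 genes was called (0 of 4, also with DESeq2), where 1.04% of 3927 genes were. At an unadjusted p under 0.05 (edgeR) were 2 of the 4, beside 949 of the 3927 genes. The differences on the log2 scale were -0.93 for Myod1 (95% interval -1.84 to -0.0318, adjusted p = 0.197) and -0.39 for Mef2d (-0.728 to -0.0421, adjusted p = 0.169, edgeR). Without Lin28a+ Igf2bp3-RIP replicate 1, Myod1 was called at -1.43 (adjusted p = 0.0185, edgeR), and without replicate 2 it was -0.53 and not called (adjusted p = 0.0993). Myf5, whose RNA and Igf2bp3-RIP were both lower, had a difference of 0.15 (-0.432 to 0.74), and Mef2a 0.58 (-0.775 to 1.93); both turned below 0 without Lin28a+ Igf2bp3-RIP replicate 1.

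Mef2a, alone of the 7 genes, had Lin28a-RIP peaks, and 3 of its 4 Igf2bp3-RIP peaks overlapped them. Over all genes, Lin28a-RIP listed peaks for 3493, beside 14837 genes with input values. The share of all Igf2bp3-RIP peaks that meet a Lin28a-RIP peak was not computed, so the overlap cannot be called particular to Mef2a. Lin28a-RIP was made from Lin28a+ MuSCs only, so its values are levels with no comparison. The peak at chr7:67251785-67252022 had 35.32 and 35.83 CPM in replicates 1 and 2, that at chr7:67266047-67266348 had 50.35 and 51.42 CPM, and that at chr7:67316841-67317162 had 46.06 and 44.14 CPM. Replicates were close, and the peaks stood at percentiles 70, 79.9 and 76.9 of 21616 Lin28a-RIP peaks by level. They shared 237, 302 and 322 bases with Igf2bp3-RIP peaks, or 87.5, 81.2 and 99.1% of each Igf2bp3-RIP peak. The remaining Igf2bp3-RIP peak of Mef2a, at chr7:67295493-67295737, met no Lin28a-RIP peak. Whether the peaks lie in exons was not determined, as no exon positions of this build were used here.

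**Figure D4:**
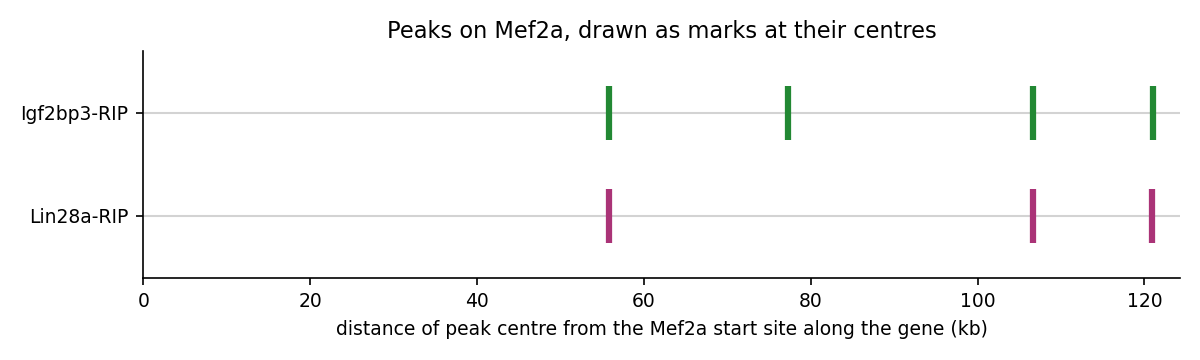
Positions of the Igf2bp3-RIP peaks (upper line, 4 marks) and Lin28a-RIP peaks (lower line, 3 marks) along Mef2a, as the distance of the peak centre from the start site in kb. The marks of 3 Igf2bp3-RIP peaks stand over a Lin28a-RIP mark and 1 does not.

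The partners, inhibitors, co-activators and target genes of MRFs and Mef2 proteins were read in RNA from lists written for this comparison. Counts follow the same test and background (56.8% called); DESeq2, whose counts are given beside them, called 25.1% of 12177 genes with an adjusted p. All 3 E proteins, the dimer partners of MRFs, were called: Tcf3 (E2A) was higher, with a log2 fold change of 0.63, while Tcf12 (HEB) at -0.47 and Tcf4 (E2-2) at -0.80 were lower. In DESeq2 only Tcf3 of the 3 was called.

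Of 20 MRF inhibitors, 16 were tested, 6 were higher and 7 lower, with a median log2 fold change of -0.17 against 0.01 over all genes. Snai1 (1.65), a repressor that competes for E-boxes, and Hey1 (1.46), a Notch effector, were higher, as were the histone deacetylase Hdac1 (0.64) and Id3 (0.29), while Snai2 (-1.34), Bhlhe41 (-0.61), Id1 (-0.38) and Id2 (-0.35) were lower. Snai1 and its relative Snai2 thus moved in opposite directions, as did Id3 and its relatives Id1 and Id2; Id proteins bind E proteins and keep them from MRFs. DESeq2 called 4 higher and 5 lower of 16 with an adjusted p.

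Of 9 genes that restrain Mef2, 8 were tested, 2 were higher and 1 was lower. Ccnd1 (cyclin D1, which drives entry into S phase and keeps Mef2 from its co-activators) fell from 588.9 and 584.6 CPM to 76.85 and 76.05 CPM, a log2 fold change of -2.94 (adjusted p = 1.26e-06, edgeR). Cdk5 (0.36), a kinase that phosphorylates Mef2, was higher, and DESeq2 called none of these genes higher. Of 26 co-activators tested, 6 were higher and 8 lower (median -0.04; 3 and 2 of 26 with DESeq2), among them the kinase Camk1 (0.75) and the methyltransferases Prmt5 (0.56) and Smyd1 (0.41) higher, and Camk2d (-1.10), Vgll3 (-0.87), the acetyltransferase Ep300 (-0.66) and Setd7 (-0.61) lower.

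Of 56 differentiation genes that MRFs and Mef2 proteins activate, 52 were tested, 10 were higher and 35 lower, with a median log2 fold change of -0.55 (9 higher and 29 lower of 52 with an adjusted p in DESeq2). Higher genes included Cdkn1c (4.57), the cell cycle inhibitor p57, and Actc1 (3.75), the cardiac actin of immature muscle. Tnnt1 (1.48), slow troponin T, and Cdh15 (0.77), M-cadherin and also a MuSC marker, were higher too. Cdkn1c was near 0 in control MuSCs (0.562 and 0.3218 CPM, against 11.2 and 10.43 CPM in Lin28a+ MuSCs). Its fold change therefore rests on a very low control level. Lower genes included Neb (-2.56), the thin filament protein nebulin, Tnnc1 (-1.39), slow troponin C, Acta1 (-1.07), skeletal actin, and Chrna1 (-0.92), the acetylcholine receptor subunit. The genes of this list therefore moved in both directions while Myog RNA was higher, with more called lower than higher. In m6A-RIP, 9 of the 44 tested were higher and 30 lower, beside 32.5% higher and 33.7% lower over all genes.

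**Figure D5:**
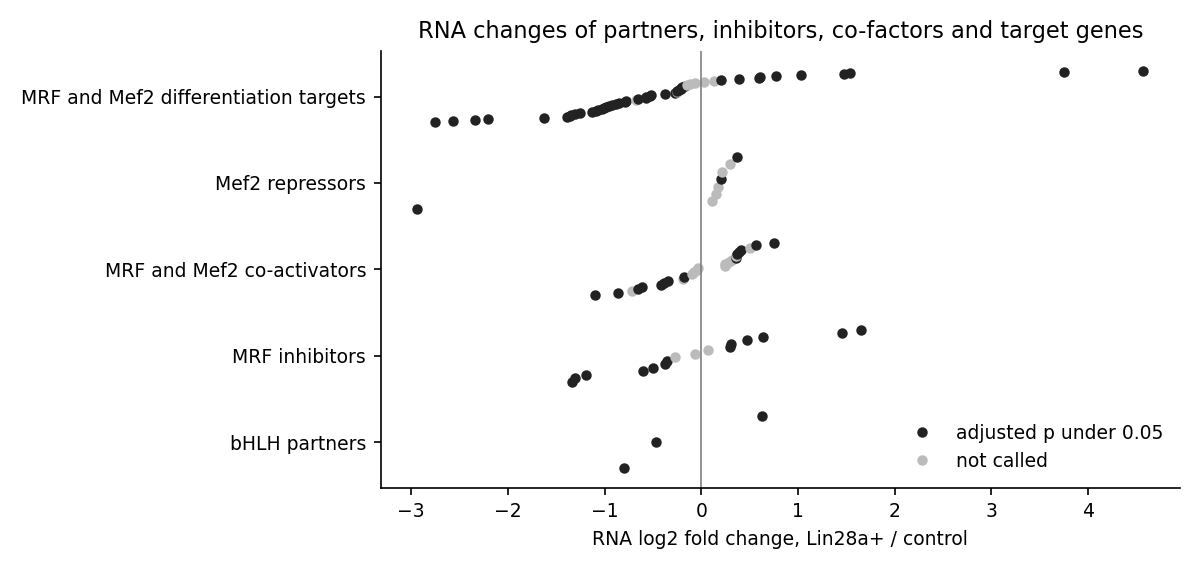
RNA log2 fold change of every tested gene in the 5 lists (points, ordered by value within a list); dark points have an adjusted p under 0.05. The differentiation targets spread from -2.75 to 4.57 (Cdkn1c, near 0 CPM in control), with 35 dark points to the left of 0 and 10 to the right.

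The genes whose pair of changes (RNA and m6A-RIP per gene, 8 libraries) was nearest to each gene were taken by Euclidean distance among 7415 genes tested in both. Around Myog 2 genes lay within 0.1, Tmem100 (distance 0.071) and Zfp764 (0.093), followed by Bmyc. Large changes have fewer neighbours within a fixed distance than small ones, so this count does not set Myog apart. Around Myf5 32 genes lay within 0.1, led by Prrx1, Hhatl and Atm, around Mef2a 45, led by Camk2d, Zfp281 and Sox11, and around Mef2c 15, led by Pxylp1, Erbin and Bicc1. Myod1 and Mef2d, whose changes were small, had 272 and 253 such neighbours, led by Clptm1l, Steap1 and Thap7 and by St7, Plscr3 and Pwwp2b.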

How the data were processed

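MuSC libraries were sequenced on an Illumina HiSeq X10. The authors deposited estimated counts per gene for input, which need not be whole, and whole-number counts per row or peak for the RIP assays, none scaled between libraries. In input, 6214 of 14837 genes (41.9%) had values that were whole multiples of 1/k, with k over 1 and up to 60. Mef2c (k of 31) and Mef2d (k of 7) were among them. A mean over k transcripts would give such values, but how they were made is not stated. Input values of these genes may therefore be smaller than their read counts. The submitters' processing notes name FastQC, HISAT2 2.0.4, DESeq2 1.42.0, MACS2 1.4.3 and the builds GRCh38 (human) and mm10; the counting program is not given in the sources used here. Peak positions fell within their genes in RefSeq positions of GRCm38.p6, the mm10 assembly.

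Columns were assigned by name, except the Lin28a+ input columns, which bear m6A-RIP names and were assigned through the labels of the input samples. The Lin28a+ m6A-RIP columns share 1 name. These 4 columns were assigned to their group only. Input values were rounded to whole numbers. Tests used edgeR 4.0.16 (R 4.3.3; quasi-likelihood, TMM factors, filterByExpr, Benjamini-Hochberg adjusted p under 0.05) on each whole table, and an interaction of cells and assay, with TMM factors within each assay, for changes relative to RNA. Standard errors and 95% intervals were derived from the p-value and its degrees of freedom. Alternatives were DESeq2 1.42.0, limma-trend (limma 3.58.1), other size factors and filters, a replicate block, single m6A-RIP rows and each library left out. The tests were tested on simulated data. The lists' named genes are up to 4 higher and 4 lower with the smallest p; single genes' nearest neighbours are the 3 closest. Genes and lists were chosen with earlier results of these data known. Intervals cover the spread between 2 libraries per group only. A few list genes are counted but not named here.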

Additional observations from a re-analysis of the deposited data

How the results depend on the processing

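The count of genes called in RNA was 4 and ranged from 3 (DESeq2, or at least 10 counts in every library, which drops Mef2c) to 5 (without control input replicate 1, which adds Myf6), and that in m6A-RIP was 6, or 5 by total counts. Myod1 RNA, not called, turned to -0.011 with at least 10 counts. With each library left out in turn, the values that changed sign, none of them called, ranged from -0.0013 to 0.021 for Myod1 RNA and from -0.35 to 0.076 for Mef2c m6A-RIP relative to RNA. In Igf2bp3-RIP they ranged from -1.12 to 0.26 for Mef2a, from -1.09 to 0.18, -1.24 to 0.29, -1.15 to 0.24 and -1.34 to 0.42 for its peaks in order of position, and from -0.48 to 0.073 for the first Mef2d peak. Leaving out Lin28a+ replicate 2 gave the upper end in each case, and without control replicate 1 the last pair of Mef2a peaks stood at 0.039 and 0.42. Relative to RNA, Igf2bp3-RIP ranged from -0.24 to 1.13 for Mef2a and from -0.087 to 0.41 for Myf5, and the count called went from 0 to 1 (Myod1) without Lin28a+ replicate 1. The causes were not tested.

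With a replicate block, possible for Igf2bp3-RIP only, 4 peaks (3 of Myf5, 1 of Myod1) and 2 genes (Myf5, log2 fold change -0.84, adjusted p = 0.00756; Myod1, -0.76, adjusted p = 0.0328, edgeR) were called in place of 0. Over all features this block called 1988 of 19465 peaks in place of 24 and 370 of 4524 genes in place of 13. The differences between replicates 2 and 1 correlated between the groups (r = 0.703, across peaks, which are not replicates). No label ties the numbers to a batch, so the pairing is a hint from the data. The wide intervals of Igf2bp3-RIP limit what 2 libraries per group can show.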
